A study of Mus musculus with 6 samples.

Results

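The proteasome genes were taken as every row of the deposited expression table whose symbol starts with Psm, a letter from a to g and a number, and 52 of 25718 genes met this rule. They were followed in primary hepatocytes of alcohol-fed mice, in 3 WT libraries and 3 S100a16KO+/- libraries, by poly(A)-selected RNA-seq. All the mice had received alcohol, so the libraries compare genotypes under alcohol and hold no pair-fed control. The feeding protocol of the study used male mice 8 to 10 weeks old, given a control liquid diet for 5 days, a liquid diet with 5% ethanol for 10 days and 1 gavage of ethanol at 5 g per kg, with collection 9 hours later. S100a16KO+/- mice carried 1 disrupted allele of S100a16, a calcium-binding protein, because mice without either allele do not survive, while the sample labels call these libraries S100A16 knockdown.

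The proteasome degrades proteins tagged with ubiquitin and is present in every nucleated cell. Its 20S core is a barrel of outer rings of alpha subunits and inner rings of beta subunits, and Psmb5, Psmb6 and Psmb7 carry the catalytic sites. The 19S cap binds the ubiquitin chain, removes it and feeds the unfolded protein into the core with a ring of ATPases. Interferon and immune signals induce the exchange of the catalytic subunits for Psmb8, Psmb9 and Psmb10, which form the immunoproteasome and favour peptides for display by MHC class I molecules. Hepatocytes clear damaged and misfolded proteins through this pathway, and it has been studied in alcohol-fed liver for that reason.

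By role, the 52 rows held 14 constitutive 20S subunits, 17 subunits of the 19S cap, 3 immunoproteasome subunits, 4 activators, 1 inhibitor, 4 chaperones of 20S assembly and 3 chaperones of 19S assembly, which make 46 genes of proteasome function. The other rows were the testis subunit Psma8, the recombination cofactor Psmc3ip, which carries the name but is not a subunit, and 4 copies of proteasome genes. A filter on low counts kept 50 rows. Psmb6-ps2 and Psmb7-ps2, copies of Psmb6 and Psmb7, failed it with 0 to 2 and 0 to 7 counts per library.

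The 6 libraries held 67658095 to 71807834 counts, of which the 52 rows took 0.149% to 0.188%. S100a16, the targeted gene, stood at 14.7, 15.0 and 16.2 CPM (counts per 1000000, on library sizes scaled by TMM) in the WT libraries and at 6.25, 6.07 and 5.08 CPM in the S100a16KO+/- libraries (log2 fold change -1.40, standard error 0.11, edgeR adjusted p = 4.14e-07). Hepatocyte markers summed to 105473 to 117210 CPM in WT and 103122 to 114458 CPM in S100a16KO+/-. Most of this sum was Alb, with means of 88524 and 85458 CPM. Ttr had a log2 fold change of -0.33 and Apoa1 of 0.21 (edgeR adjusted p = 0.000645 and 0.0538). None of the cell type markers in the table was at 0 in all libraries. Markers of some other cells moved with genotype, and their part in the results on the proteasome was not tested. Sinusoidal endothelial markers (5 of 6 higher, 1 lower) summed to 183 to 190 CPM in WT and 260 to 266 CPM in S100a16KO+/-, stellate cell markers (4 of 6 higher) to 38.6 to 42.5 and 69.3 to 76.2 CPM, and erythroid markers (5 of 5 lower) to 215 to 252 and 23.4 to 26.3 CPM. Kupffer cell markers had 2 of 8 higher, lymphocyte and neutrophil markers 1 of 10 lower, cholangiocyte markers 1 of 4 tested lower and hepatocyte markers 1 of 6 lower. The other tested markers of these lists had no call. For comparison, 11.6% of all tested genes were higher and 11.2% lower. WT replicate 1 and S100a16KO+/- replicate 2 stood apart from the others of their genotype on the second principal component, which held 12.8% of the variance.

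The sequences before the transcript start are shown for a few proteasome genes with different results, since elements there are known to set the common level of these genes. RefSeq windows of GRCm38.p6, from 250 bases before to 50 bases after a transcript start, were found for 41 of the 52 rows, and the stretches printed here stop where an annotated exon begins. Psmd14 showed the largest fall, Psmc6 fell, Psmd2 missed the threshold narrowly and Psmd9 rose. Psmb8, the immunoproteasome subunit that rose, is shown by 29 bases because its whole window lies inside an annotated exon of another of its transcripts. Capitals mark matches to 5 motifs on either strand, and every stretch printed here holds a match.
Psmd14, chr2:61711444-61711693, plus strand: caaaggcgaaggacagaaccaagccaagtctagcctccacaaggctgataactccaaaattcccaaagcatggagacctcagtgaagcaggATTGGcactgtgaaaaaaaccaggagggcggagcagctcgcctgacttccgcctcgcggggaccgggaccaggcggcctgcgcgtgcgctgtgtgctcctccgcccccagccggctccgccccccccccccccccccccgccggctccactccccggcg
Psmc6, chr14:45329574-45329787, plus strand: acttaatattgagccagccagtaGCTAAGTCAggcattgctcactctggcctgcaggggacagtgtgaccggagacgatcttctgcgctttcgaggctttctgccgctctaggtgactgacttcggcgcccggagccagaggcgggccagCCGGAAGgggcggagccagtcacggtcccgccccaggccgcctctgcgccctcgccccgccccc
Psmd2, chr16:20651402-20651651, plus strand: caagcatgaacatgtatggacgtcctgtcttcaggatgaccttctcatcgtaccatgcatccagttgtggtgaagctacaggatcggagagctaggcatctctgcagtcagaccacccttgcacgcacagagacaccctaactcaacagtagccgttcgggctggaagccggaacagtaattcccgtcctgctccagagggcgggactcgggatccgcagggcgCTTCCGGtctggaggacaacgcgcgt
Psmd9, chr5:123227940-123228189, plus strand: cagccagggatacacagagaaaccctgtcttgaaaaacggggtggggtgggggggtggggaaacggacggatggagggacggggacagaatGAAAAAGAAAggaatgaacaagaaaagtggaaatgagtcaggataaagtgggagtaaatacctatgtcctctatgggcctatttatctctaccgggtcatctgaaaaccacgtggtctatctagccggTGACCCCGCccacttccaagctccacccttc
Psmb8, chr17:34198088-34198116, plus strand: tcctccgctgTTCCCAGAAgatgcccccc

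In these stretches the capitals in Psmd14 are a CCAAT box read on the opposite strand, those in Psmc6 an antioxidant response element core (TGACNNNGC) on the opposite strand and an ETS core (CCGGAAG), and those in Psmd2 an ETS core on the opposite strand. Psmd9 holds an interferon-stimulated response element core and an antioxidant response element core, and Psmb8 a gamma-activated site core (TTCNNNGAA). Over the whole windows of 300 bases, the ETS core was in the windows of 36.6% of the 41 proteasome genes and of 9.93% of 27025 genes. The interferon-stimulated response element core was in 12.2% against 3.99%. The shares of the other motifs lay closer together, at 14.6% against 14.0% for the antioxidant response element core, 34.1% against 41.1% for the CCAAT box and 7.32% against 9.55% for the gamma-activated site core. Of the 15 genes with a window that were lower in S100a16KO+/-, 6 held the ETS core and 6 the CCAAT box. These are matches of letters and were counted without a test.

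Most constitutive proteasome genes were slightly lower in S100a16KO+/- hepatocytes. Of the 50 tested genes, 18 were lower and 2 were higher at an edgeR adjusted p under 0.05, where 11.2% of all 15957 tested genes were lower and 11.6% higher. Since most proteasome genes are well expressed, the 6550 tested genes of at least 10 CPM are the nearer background, and 21% of these were lower and 17% higher. Among the 31 constitutive subunits of the core and the cap, 17 were lower, 0 were higher, also at an unadjusted p under 0.05 or by DESeq2 or limma voom, and 30 had a log2 fold change below 0, which held for 49.4% of all tested genes and 55.5% of those of at least 10 CPM. Their median log2 fold change was -0.22, against 0.01 over all tested genes and -0.03 over those of at least 10 CPM. The decrease was small for each gene, and 0 of the 50 met the study's criterion of an unadjusted p under 0.05 with a fold change of at least 2, which 4.52% of all tested genes met. Without WT replicate 3 the number of lower genes was 10 of 50, where 7.92% of all genes tested in that fit were lower. Limma fits of the FPKM values gave 8 of 48, nearer to the 11.6% and 11.7% of all genes lower in these 2 fits. These 8 genes, Psma1, Psmb3, Psmc3, Psmc4, Psmd1, Psmd3, Psmd12 and Psmd14, were also called with each library left out and under each scaling, filter and count model tried. The other 10 calls were all lost in both limma fits, and most of them without WT replicate 3.

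Summed over the 31 constitutive subunits, the level was 1504, 1503 and 1567 CPM in the WT libraries and 1335, 1292 and 1312 CPM in the S100a16KO+/- libraries. The lowest WT library therefore lay above the highest S100a16KO+/- library. In 19 of the 31 genes taken singly, all WT values lay above all S100a16KO+/- values, a pattern shown by 18.6% of all tested genes. The share among tested genes of at least 10 CPM, the nearer background, was not taken. In RNA from a whole hepatocyte preparation, fewer cells of a type and less RNA per cell cannot be told apart.

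**Figure D1:**
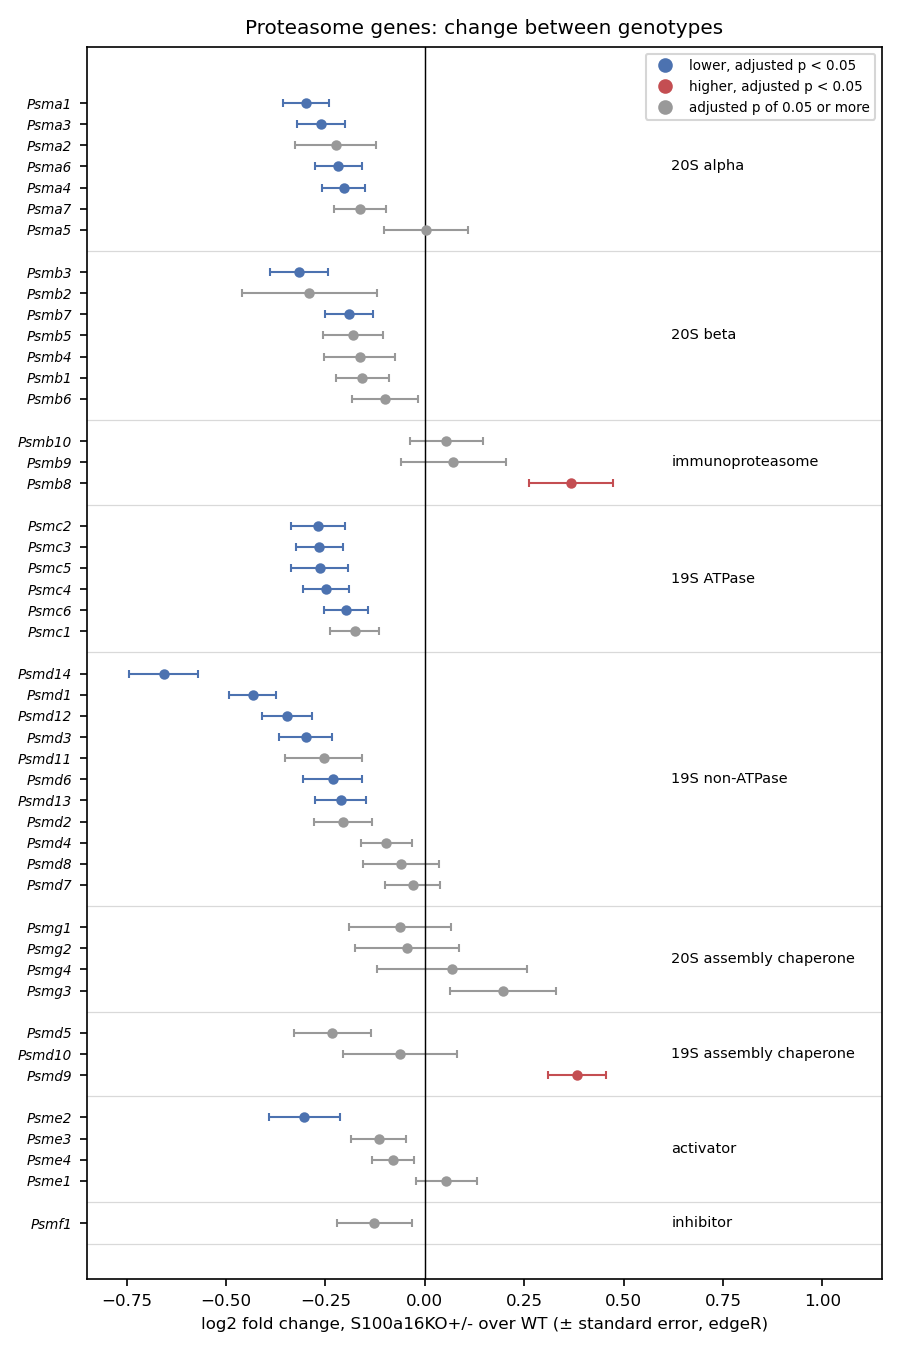
Change of the 46 genes of proteasome function between genotypes, grouped by role. The x axis is the log2 fold change of S100a16KO+/- over WT from edgeR, points are genes and bars the standard error. Of the 31 constitutive 20S and 19S subunits 30 lie left of 0, while the 3 immunoproteasome subunits lie right of 0 and only Psmb8 and Psmd9 are called higher.

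The 19S cap held the largest falls. Of its 17 genes 11 were lower, where 21% of tested genes of at least 10 CPM were. The median log2 fold change was -0.25 with a range from -0.66 to -0.03. Psmd14, the metalloprotease of the lid that cuts the ubiquitin chain off the substrate, stood at 21.8, 24.4 and 24.3 CPM in WT and at 16.1, 14.8 and 13.9 CPM in S100a16KO+/-. The groups did not overlap, and the S100a16KO+/- mean was 63.4% of the WT mean (log2 fold change -0.66, standard error 0.09, edgeR adjusted p = 6.45e-05).

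Psmd1, the largest scaffold protein of the base, followed with 58.7, 62.7 and 59.9 CPM in WT and 46.9, 44.6 and 42.7 CPM in S100a16KO+/-. All 3 WT libraries were higher, with a log2 fold change of -0.43 and a standard error of 0.06 (edgeR adjusted p = 8.46e-05). Psmd12, a scaffold subunit of the lid, stood at 37.4, 38.0 and 40.8 CPM in WT and at 30.8, 29.6 and 30.8 CPM in S100a16KO+/-. Its groups did not overlap either (log2 fold change -0.35, standard error 0.06, edgeR adjusted p = 0.000964).

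The ATPases that form the motor ring moved within a narrow band, from -0.27 to -0.18 on the log2 scale. Of these 6 genes, Psmc2, Psmc3, Psmc4, Psmc5 and Psmc6 were lower, and all 6 had groups that did not overlap. Over all tested genes 11.2% were lower, and 18.6% had S100a16KO+/- values all below WT. Psmc1, the most abundant of them, stood at 73.3, 64.2 and 69.4 CPM in WT and at 60.7, 58.9 and 63.5 CPM in S100a16KO+/-, a log2 fold change of -0.18 that missed the threshold (edgeR adjusted p = 0.0561). Psmc2, the lowest by FPKM, stood at 36.3, 35.3 and 39.5 CPM against 31.6, 29.1 and 31.5 CPM (log2 fold change -0.27, edgeR adjusted p = 0.0102).

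Among the non-ATPase subunits, Psmd3, Psmd6 and Psmd13 were also lower, by 0.30, 0.23 and 0.21 on the log2 scale. The calls of Psmd6 and Psmd13 were lost with upper-quartile scaling (edgeR adjusted p = 0.0751 and 0.0651), in the limma fits of FPKM, and without S100a16KO+/- replicate 2, WT replicate 2 or WT replicate 3, and also without S100a16KO+/- replicate 3 for Psmd6 and S100a16KO+/- replicate 1 for Psmd13. Psmd8, the lid subunit of highest FPKM, stood at 68.8, 58.1 and 57.7 CPM in WT and at 54.8, 68.0 and 54.2 CPM in S100a16KO+/-, so its groups overlapped (log2 fold change -0.06, edgeR adjusted p = 0.721). The 2 highest of these values came from WT replicate 1 and S100a16KO+/- replicate 2, the libraries that stood apart. Psmd11, of lowest FPKM, ran from 32.7 to 38.4 CPM in WT and from 26.1 to 34.7 CPM in S100a16KO+/-, and overlapped too (-0.25, edgeR adjusted p = 0.0796). Psmd4, a ubiquitin receptor of the cap, had a log2 fold change of -0.10 and Psmd7, the partner of Psmd14 in the lid, of -0.03, and neither passed the test. Taken by position, 6 of 9 base subunits and 5 of 8 lid subunits were lower, against 21% of tested genes of at least 10 CPM.

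In the 20S core 6 of 14 genes were lower, where 21% of tested genes of at least 10 CPM were. The median log2 fold change was -0.20. Of these calls, those of Psma3, Psma4, Psma6 and Psmb7 were lost in both limma fits of FPKM. The difference between core and cap was not tested. Of the alpha subunits, which gate the entry to the barrel, Psma1, Psma3, Psma4 and Psma6 were lower. Psma1 fell by 0.30 on the log2 scale, with 46.1 ± 1.73 CPM in WT and 37.5 ± 1.17 CPM in the S100a16KO+/- libraries (SD, n = 3 libraries each). Psma6, the alpha subunit of highest FPKM, stood at 52.0, 51.9 and 56.1 CPM in WT and at 47.2, 43.8 and 46.5 CPM in S100a16KO+/-. All its WT values lay above (log2 fold change -0.22, edgeR adjusted p = 0.0155).

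Psma2, the alpha subunit of lowest FPKM, stood at 29.9, 26.0 and 29.1 CPM in WT and at 21.1, 28.5 and 23.2 CPM in S100a16KO+/-, where replicate 2 lay within the WT range (log2 fold change -0.22, edgeR adjusted p = 0.138). Psma5 was the 1 constitutive subunit without a log2 fold change below 0, at 22.0 ± 3.00 CPM against 22.1 ± 2.30 CPM. Of the words of 31 bases in its transcripts 58.7% also occur in other genes, so its counts are uncertain. Psmb3, a structural beta subunit, showed the largest fall of the core, with 41.7, 36.2 and 40.5 CPM in WT and 32.1, 33.7 and 29.3 CPM in S100a16KO+/-. Its groups did not overlap (log2 fold change -0.32, standard error 0.07, edgeR adjusted p = 0.00622), and 21.7% of its words are shared with other genes.

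The catalytic subunits of the core can each be replaced by an immunoproteasome counterpart, and of these 6 genes Psmb7 was lower and Psmb8 higher. Psmb5, which carries the chymotrypsin-like site, stood at 42.6, 46.0 and 51.4 CPM in WT and at 44.0, 37.9 and 41.6 CPM in S100a16KO+/-. One S100a16KO+/- value lay within the WT range, and the log2 fold change of -0.18 did not pass (standard error 0.08, edgeR adjusted p = 0.109). Of the words of 31 bases in Psmb5 71.7% also occur in other genes and 59.8% in Gm3375, so its counts are uncertain, and with the counts of Gm3375 added the log2 fold change was -0.19. Psmb6, which carries the caspase-like site, stood at 41.9, 50.1 and 53.8 CPM against 48.5, 44.4 and 43.1 CPM. Its groups overlapped and its log2 fold change was -0.10 (edgeR adjusted p = 0.453). Psmb7, which carries the trypsin-like site, stood at 64.4, 63.8 and 67.3 CPM against 58.9, 53.1 and 59.3 CPM. It was the 1 constitutive catalytic subunit whose groups did not overlap and that was called lower (log2 fold change -0.19, standard error 0.06, edgeR adjusted p = 0.035), and the call was lost in the limma fits of FPKM, with upper-quartile scaling (adjusted p = 0.085), without both libraries that stood apart (0.0738) and without each single library other than S100a16KO+/- replicate 3.

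Psmb8 and Psmb9 lie close together in the MHC region of chromosome 17 (34197721 to 34201454 and 34181987 to 34187764 in mm10). Psmb8, the immunoproteasome counterpart of Psmb5, stood at 8.07, 9.94 and 9.19 CPM in WT and at 11.8, 11.3 and 12 CPM in S100a16KO+/-. All S100a16KO+/- values were higher, with a mean 129% of the WT mean (log2 fold change 0.37, standard error 0.11, edgeR adjusted p = 0.0213). The estimate stayed between 0.29 and 0.44 when each library was left out, but the adjusted p rose to 0.0892 without WT replicate 1, to 0.0654 without S100a16KO+/- replicate 1, to 0.0681 without S100a16KO+/- replicate 3 and to 0.051 without WT replicate 3. It was 0.0855 without both libraries that stood apart, and 0.0553 and 0.0583 in limma fits of log2(FPKM + 1) and log2(FPKM + 0.1).

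Psmb9, the counterpart of Psmb6, stood at 5.81, 5.60 and 5.49 CPM in WT and at 6.62, 5.41 and 5.72 CPM in S100a16KO+/-. The groups overlapped (log2 fold change 0.07, standard error 0.13, edgeR adjusted p = 0.766). Its first exons share up to 212 bases with Tap1 on the other strand, a gene that was higher by 0.39. Psmb10, the counterpart of Psmb7, stood at 14.6, 15.2 and 15.6 CPM against 15.1, 14.7 and 17.4 CPM, again overlapping (log2 fold change 0.05, edgeR adjusted p = 0.745). The immunoproteasome therefore had 1 of 3 genes higher, with a median log2 fold change of 0.07. Over all tested genes 11.6% were higher, and over those of at least 10 CPM 17%. A class of 3 genes is too small to set against these shares.

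**Figure D2:**
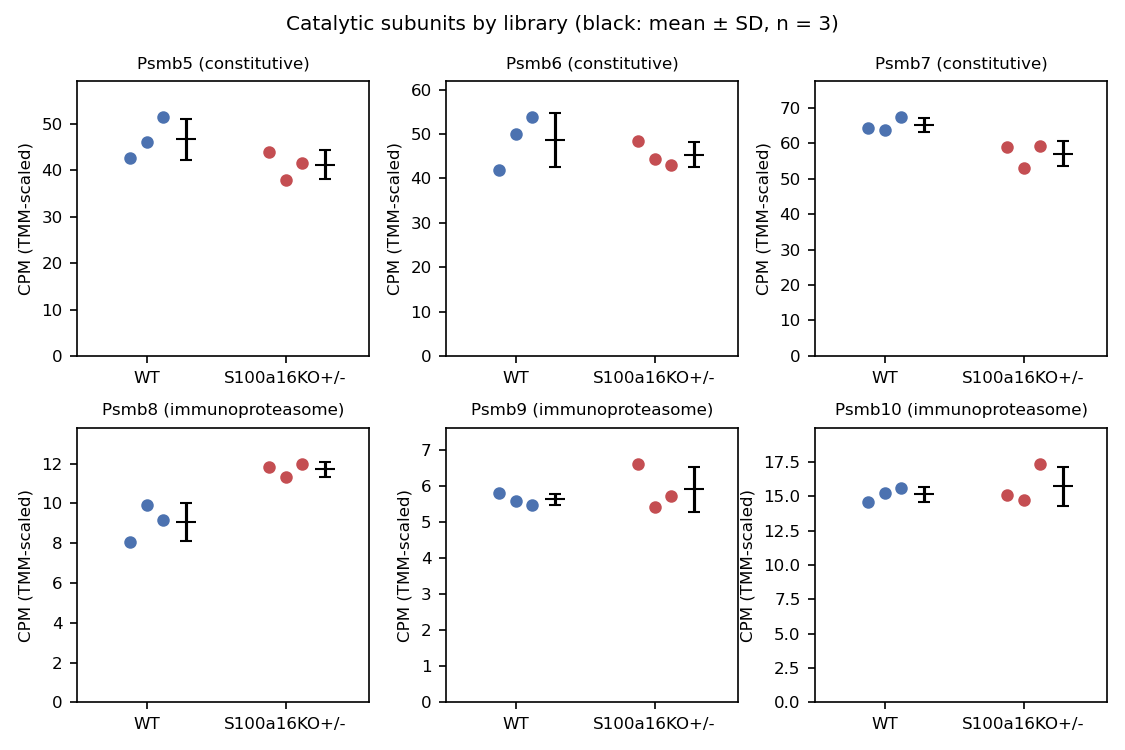
Catalytic subunits by library, with the constitutive subunit above its immunoproteasome counterpart. The y axis is CPM on TMM-scaled library sizes, points are libraries in the order of their replicate number, and black marks give the mean ± SD (n = 3). The 3 S100a16KO+/- values of Psmb8 (11.3 to 12 CPM) lie above the 3 WT values (8.07 to 9.94 CPM), whereas Psmb9 and Psmb10 overlap between genotypes.

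The RNA balance of each catalytic pair was followed as its FPKM ratio within a library. Exchange of subunits in the assembled complex was not measured. Psmb8 over Psmb5 was 0.0502, 0.0573 and 0.0474 in WT and 0.0713, 0.0793 and 0.0765 in S100a16KO+/-. The S100a16KO+/- ratios were all higher, by 1.47 times in the mean (two-sided exact permutation p = 0.1, 0.15 adjusted over 3 ratios, n = 3 against 3). Psmb10 over Psmb7 was 0.452, 0.478 and 0.464 against 0.512, 0.554 and 0.586, also without overlap and 1.19 times as high (exact permutation p = 0.1, 0.15 adjusted). In this pair Psmb10 itself had a log2 fold change of 0.05 and Psmb7 one of -0.19. Psmb9 over Psmb6 was 0.0706, 0.0569 and 0.0520 against 0.0696, 0.0622 and 0.0677, where the groups overlapped (1.11 times, exact permutation p = 0.4). The level of a ratio depended on the length scale. Per kb of the longest coding transcript, the mean of Psmb10 over Psmb7 was 0.206 in WT and 0.243 in S100a16KO+/-. On that scale Psmb8 over Psmb5 was at 0.108 and 0.157, and Psmb9 over Psmb6 at 0.0694 and 0.0770. The uncertainty in the counts of Psmb5 carries into the ratio of Psmb8 over Psmb5. With 3 libraries against 3, the exact test cannot go below 0.1.

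The activators open the core without the ubiquitin-dependent cap. Psme1 and Psme2, which build the interferon-inducible ring, gave different values. Psme1 stood at 42.2, 35.5 and 36.6 CPM in WT and at 41.3, 41.2 and 36.2 CPM in S100a16KO+/-, with overlapping groups and a log2 fold change of 0.05 (edgeR adjusted p = 0.689). Psme2 stood at 21.8, 25.1 and 25.9 CPM in WT and at 18.9, 18.5 and 21.6 CPM in S100a16KO+/-. The groups did not overlap (log2 fold change -0.30, standard error 0.09, edgeR adjusted p = 0.0252).

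This call was lost once the counts of a second gene were added. Psme2b, a copy of Psme2 on chromosome 11 (48945354 to 48946190 in GRCm38, against 55587441 to 55591113 on chromosome 14 for Psme2), shares 33.5% of the words of 31 bases in Psme2, and 76.5% of its own words occur in Psme2. Psme2b was counted at 6.59, 8.07 and 9.34 CPM in WT and at 15.3, 6.80 and 9.61 CPM in S100a16KO+/-, where replicate 1 stood above all others. With the counts of both genes added, the values were 28.4, 33.2 and 35.3 CPM against 34.2, 25.3 and 31.2 CPM. The summed groups overlapped, and the log2 fold change was -0.09 (edgeR adjusted p = 0.62).

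**Figure D3:**
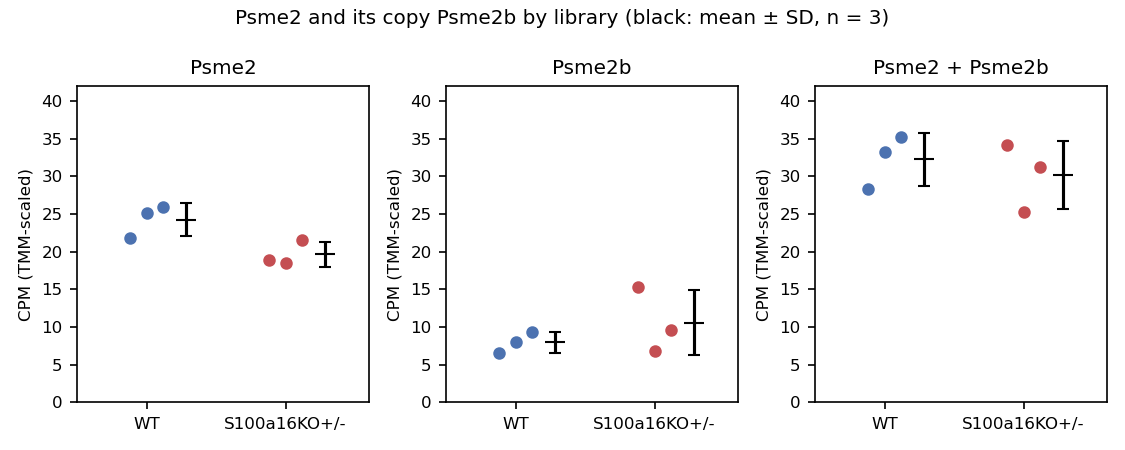
Psme2, its copy Psme2b and their sum by library. The y axis is CPM on TMM-scaled library sizes, points are libraries in the order of their replicate number, and black marks give the mean ± SD (n = 3). Psme2 does not overlap between genotypes, but S100a16KO+/- replicate 1 holds 15.3 CPM of Psme2b and the sums overlap.

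Psme3, the nuclear activator, stood at 31.2, 33.2 and 30.8 CPM in WT and at 30.2, 30.4 and 27.2 CPM in S100a16KO+/-. Psme4, the large single-chain activator, stood at 66.3, 67.9 and 69.3 CPM against 65.1, 64.0 and 63.2 CPM. In both genes all WT values were the higher ones, yet the log2 fold changes of -0.12 and -0.08 did not pass (edgeR adjusted p = 0.269 and 0.321). Psmf1, an inhibitor of the core, stood at 15.1, 15.9 and 16 CPM against 13.0, 15.9 and 14.1 CPM, with overlapping groups (log2 fold change -0.13, edgeR adjusted p = 0.39).

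Of the chaperones that assemble the complex, 1 rose and the others did not pass the test. Psmd9, which escorts ATPases during assembly of the 19S base, stood at 19.3, 18.0 and 19.2 CPM in WT and at 25.0, 24.1 and 24.4 CPM in S100a16KO+/-. The groups did not overlap, and the mean was 130% of the WT mean (log2 fold change 0.38, standard error 0.07, edgeR adjusted p = 0.00159). The call held in all alternative fits, including those with each library left out, with estimates from 0.28 to 0.42. An antisense gene, Gm26745, shares up to 1849 bases of exon with Psmd9, and its level was not analysed here.

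Psmd5, another base chaperone, stood at 18.9, 17.3 and 16.3 CPM in WT and at 14.1, 16.7 and 13.9 CPM in S100a16KO+/-, with replicate 2 inside the WT range (log2 fold change -0.23, edgeR adjusted p = 0.107). Psmd10, also known as gankyrin, stood at 5.24, 4.67 and 5.20 CPM against 5.31, 4.26 and 4.90 CPM, overlapping (log2 fold change -0.06, edgeR adjusted p = 0.815). Of the chaperones of 20S assembly, 0 of 4 passed the test in either direction, and at an unadjusted p under 0.05 the number was also 0. DESeq2 and limma voom called 0 of them as well.

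Psmg1 and Psmg2, which pair to place the alpha ring, stood at 10.9, 12.1 and 11.8 CPM against 13.0, 8.76 and 11.6 CPM and at 7.85, 11.0 and 10.7 CPM against 9.97, 9.93 and 8.72 CPM. Psmg3 and Psmg4, the second pair, stood at 5.43, 5.58 and 5.27 CPM against 6.49, 6.75 and 5.43 CPM and at 4.47, 3.79 and 3.42 CPM against 4.66, 3.02 and 4.55 CPM. All 4 genes overlapped between genotypes, with log2 fold changes from -0.06 to 0.20. Psma8 and Psmc3ip had 11 to 29 and 0 to 26 counts per library, against a limit of 12 counts, or 3 fragments, that a count of 0 allows, and neither passed the test.

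Levels were compared between genes on 2 scales per length, because the deposited FPKM values divide by the merged exons of all annotated transcripts. The other scale was CPM per kb of the longest coding transcript. By FPKM, Psmb5 was the highest of the 46 genes (43.8 over 6 libraries) and Psmb9 the lowest (1.41). Per kb of coding transcript Psmb4 led with 65.5, Psmb5 was in position 5 with 48.9 and Psmb9 in position 43. The median of the 20S core was 1.26 times that of the 19S cap by FPKM and 1.94 times per kb of coding transcript. The 31 constitutive subunits spanned 9.43-fold by FPKM and 7.25-fold per kb of coding transcript, although the complex holds them in fixed proportions.

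The immunoproteasome subunits were the less abundant forms in both genotypes. The median over the 31 constitutive subunits was 5.15 times their median by FPKM and 3.99 times per kb of coding transcript. By FPKM, Psmb10 was at 7.91 ± 0.602 in WT and 8.27 ± 1.11 in S100a16KO+/-, Psmb8 at 2.40 ± 0.348 and 3.11 ± 0.247, and Psmb9 at 1.37 ± 0.0325 and 1.45 ± 0.199 (SD, n = 3 each). Psmb10 thus remained the most abundant of the 3, and Psmb9 the least.

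**Figure D4:**
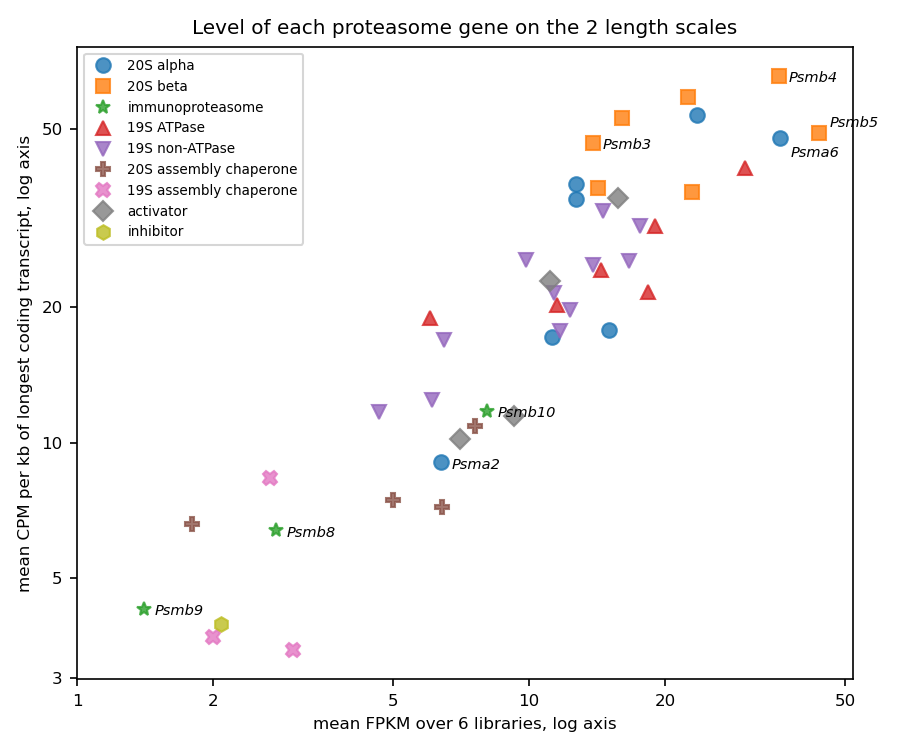
Mean level of the 46 genes of proteasome function over 6 libraries, as FPKM (x axis, log) and as CPM per kb of the longest coding transcript (y axis, log). Symbols give the role, and of the 3 immunoproteasome genes (stars) Psmb8 and Psmb9 lie below all 31 constitutive subunits on both scales, while Psmb10 lies above some of them. Psmb5 leads by FPKM (43.8) and Psmb4 per kb of coding transcript (65.5).

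Genes around the proteasome were read from 5 lists, to be set beside the 21% lower and 17% higher among tested genes of at least 10 CPM and their median of -0.03. In lists this short, shares near these values are no result about the list. Of 10 other parts and partners of the complex, 3 were lower, against 21% in that background, and the other 7 did not pass, with a median log2 fold change of -0.19. Usp14, the deubiquitinase that docks on the cap, fell by 0.40 (standard error 0.08), the ubiquitin ligase Ube3c by 0.28 (0.06) and the adaptor Ecpas by 0.19 (0.06). Usp14 stood at 21.4, 24.2 and 24.1 CPM in WT and at 18.5, 17.0 and 17.4 CPM in S100a16KO+/-, so the groups did not overlap.

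Of 12 regulators of proteasome genes, 3 were higher and 4 lower, where 17% and 21% of tested genes of at least 10 CPM were. Nfe2l2, which encodes NRF2, a factor known to act on antioxidant response elements, stood at 72.7, 73.7 and 69.7 CPM in WT and at 47.1, 52.6 and 49.8 CPM in S100a16KO+/-. The groups lay far apart (log2 fold change -0.53, standard error 0.06, edgeR adjusted p = 1.39e-05). Nfe2l1, which encodes the factor that restores proteasome genes when the complex is inhibited, had a log2 fold change of -0.12 and did not pass, whereas Ddi2, the protease that activates it, fell by 0.18. The repressor Bach1 fell by 0.34 and Nfyb, a subunit of the factor that binds CCAAT boxes, also by 0.34. Mafk and Maff, small partners of these factors, rose by 0.82 and 0.43, and Stat3 rose by 0.22.

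Of 17 genes for ubiquitin and its shuttles, 2 were higher and 4 lower, shares near the 17% and 21% of the background. Ubqln4, a shuttle factor, rose by 0.30. Rad23b and Ubqln1, also shuttle factors, fell by 0.37 and 0.23, Zfand5, an activator of the proteasome, by 0.42 and the segregase Vcp by 0.19.

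The peptides that the proteasome cuts are carried into the endoplasmic reticulum and loaded on MHC class I. Of 9 genes of this processing, 6 were higher and the other 3 did not pass, with a median log2 fold change of 0.21. Of all tested genes 11.6% were higher, and 17% of those of at least 10 CPM. Tap1, 1 chain of the peptide transporter, stood at 14.7, 15.9 and 16.2 CPM in WT and at 20.8, 21.6 and 19.1 CPM in S100a16KO+/- (log2 fold change 0.39, standard error 0.08, edgeR adjusted p = 0.00374). Tapbpl, Tapbp and Tap2 rose by 0.31, 0.29 and 0.26, and the class I heavy chains H2-K1 and H2-D1 by 0.21 and 0.19. Endothelial and stellate cell markers were higher in the same libraries, and their part in these rises was not tested.

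Of 18 interferon response genes, 1 was higher and 5 lower, and the median log2 fold change was -0.12. The shares were 11.6% higher and 11.2% lower over all tested genes, and 17% and 21% over those of at least 10 CPM. Several genes of this list, such as Ifit1, Isg15 and Gbp2, stood under 10 CPM, so the second background matches the list less well. Igtp, Irf1 and Irf9 fell by 0.66, 0.40 and 0.34. Igtp, an interferon-inducible GTPase, stood at 27.9, 26.8 and 26.2 CPM in WT and at 17.1, 17.6 and 16.6 CPM in S100a16KO+/-. Its groups did not overlap (edgeR adjusted p = 1.39e-05). Irf8, known from macrophages and B cells, rose by 0.73 from 2.73 ± 0.234 to 4.52 ± 0.549 CPM (SD, n = 3 each).

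**Figure D5:**
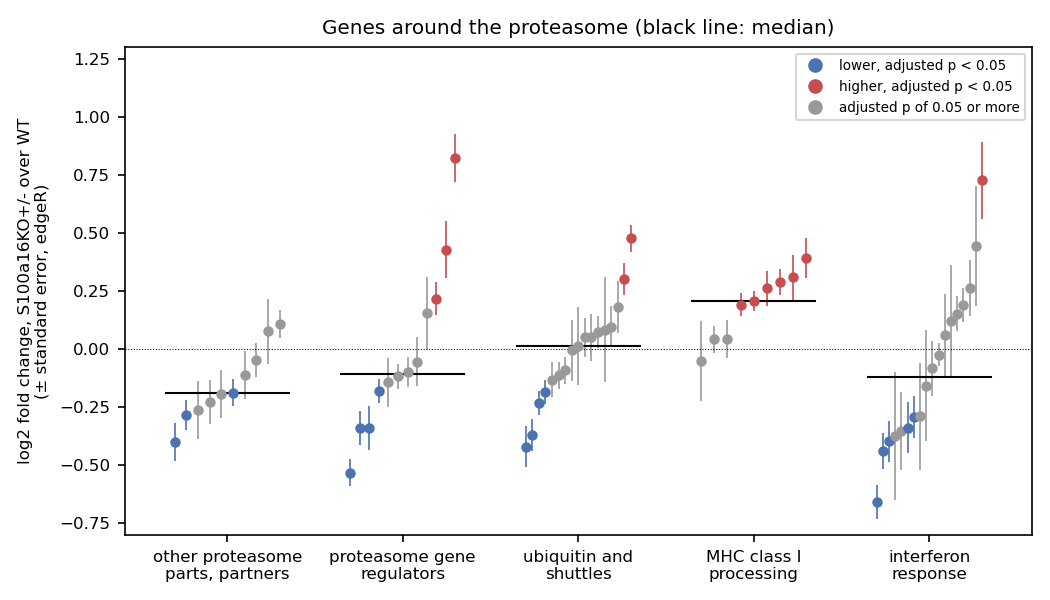
Change of the genes of 5 lists around the proteasome. The y axis is the log2 fold change of S100a16KO+/- over WT from edgeR, points are genes sorted within a list, bars the standard error and black lines the list's median. MHC class I processing holds 6 higher genes and a median of 0.21, and other proteasome parts a median of -0.19.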

How the data were processed

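Poly(A)-selected RNA of primary hepatocytes from 3 WT and 3 S100a16KO+/- mouse samples had been sequenced as paired reads. The submitters' processing notes name cutadapt 1.9, HISAT2 2.0.4, UMI-tools, StringTie 1.3.4d, edgeR, DESeq2 and the build mm10, and settings for strand and multiply mapped reads were not given in the sources used here. The authors deposited 1 table of all genes with estimated counts, as whole numbers that rise by about 4 for each fragment at low values, and with FPKM values. Implied lengths behind the deposited FPKM values were 1.12 times the merged exon length of GENCODE M21 in the median, and 94.8% of 15934 tested genes lay within 5% of that ratio. There were 0 columns of other series.

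Counts were tested across all genes in edgeR 4.0.16 (quasi-likelihood, TMM scaling, filterByExpr, two-sided, Benjamini-Hochberg over all tested genes) in R 4.3.3, and a call is an adjusted p under 0.05. A count test of whole counts had been planned and was kept for these estimated counts. DESeq2 1.42.0, limma 3.58.1 (voom, and FPKM with pseudocounts of 1 and 0.1 on genes of mean FPKM of at least 1), other scalings, other filters, counts divided by 4, the replicate number as a block and left-out libraries were alternatives. The sum of counts with copies sharing words of 31 bases, and CPM per kb of coding transcript, were added after seeing the data. The edgeR fit was tested on simulated data, where it called 12 of 26 genes lowered by 0.58 on the log2 scale, 14 of 36 raised by 0.58 and 12 of 15319 unchanged genes. The simulation changed 200 genes drawn from all levels, far fewer than were called in the data. Its shares therefore do not give the sensitivity for well-expressed genes such as most proteasome genes. Libraries held 67658095 to 71807834 counts, and a gene at 0 may still have had as many as 3 fragments (12 counts), a limit that covers counting error only.

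Groups came from the sample labels. These do not say whether replicates were separate animals, so p-values measure the spread between these samples, which may be technical. The genes, their roles and the lists around them were chosen with earlier results of these data known. Values per library are given for the catalytic subunits and their counterparts, the activators, the inhibitor, the assembly chaperones, the 5 largest rises and falls among the calls and the genes of highest and lowest FPKM of each role, and up to 4 genes in each direction are named from each list. Some genes that this rule would name are not reported here.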

Additional observations from a re-analysis of the deposited data

How the results depend on the processing

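The count of 18 lower and 2 higher proteasome genes was 20 and 2 in DESeq2, 18 and 2 in limma voom and 15 and 2 with upper-quartile scaling. Of all genes tested in these fits, 12.1%, 11.3% and 9.31% were lower and 12.1%, 11.8% and 13.3% higher. Limma fits of log2(FPKM + 1) and of log2(FPKM + 0.1) each gave 8 lower and 1 higher of 48. Of all genes in these fits, 11.7% and 11.6% were lower and 12.9% and 12.8% higher. In the lists around the proteasome each gave 8 lower genes, against 16 in the main fit. The study's criterion gave 0 lower and 0 higher, and 4.52% of all tested genes met it. Leaving out each library gave 10 to 20 lower and 1 to 2 higher genes, the fewest without WT replicate 3. Without both WT replicate 1 and S100a16KO+/- replicate 2, 22 were lower and 1 higher, where 10.8% and 10.3% of all tested genes were. The cause of these differences was not tested.

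The 19S cap's median log2 fold change was -0.21 in the fit of log2(FPKM + 1), with upper-quartile scaling and without both libraries, and -0.26 to -0.21 with each library left out. The activators' median was -0.062 with upper-quartile scaling, and that of the 19S chaperones was 0.044 without both libraries and -0.14 to 0.019 with each left out. With each library left out, the median of the 20S core was -0.22 to -0.16 and that of the 31 constitutive subunits -0.24 to -0.19. With upper-quartile scaling they were -0.16 and -0.18. The median over all tested genes was 0.043 in that fit, against 0.0062 in the main fit. The sign of Psma5 turned to -0.0010 in DESeq2 and with median-ratio scaling, -0.0011 with copies summed, -0.00047 without a filter and -0.030 without both libraries. Psmd7 turned to 0.0058 with upper-quartile scaling. Without both libraries Psmd7 turned to 0.020, Psmd10 to 0.044, Psmg1 to 0.036 and Psma5-ps to 0.16. With each library left out, the estimate crossed 0 for Psma5 (-0.10 to 0.085), Psma5-ps (-0.30 to 0.18), Psmb9 (-0.019 to 0.13), Psmb10 (-0.025 to 0.10), Psmc3ip (-3.17 to 0.11), Psmd7 (-0.068 to 0.028), Psmd8 (-0.17 to 0.026), Psmd10 (-0.14 to 0.019), Psmg1 (-0.19 to 0.083), Psmg2 (-0.19 to 0.041) and Psmg4 (-0.040 to 0.24), none of which was called.

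With the replicate number as a block 17 genes were lower and 2 higher, with Psmb7 and Psmc6 lost and Psmd11 gained. In that fit 9.50% of all tested genes were lower and 9.81% higher. Deviations of same-numbered libraries correlated at -0.05, -0.02 and 0.05, so no pairing by number was seen. The largest correlation, 0.08, was between WT replicate 1 and S100a16KO+/- replicate 2. With 3 libraries per genotype these values cannot exclude a pairing or a shared batch. Depth limits Psma8, Psmc3ip and the copies Psmb6-ps2 and Psmb7-ps2.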
